A study of Rattus norvegicus with 12 samples.

Results

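The genes of the extracellular matrix and of the proteases that remodel it were followed in CC531, a cell line from a rat colon carcinoma, treated with butyrate or aspirin. Members were all probe sets whose single annotated gene was a collagen, laminin chain, matrix metalloproteinase (Mmp) or tissue inhibitor of metalloproteinases (Timp), or one of a fixed list of other matrix genes: fibronectin (Fn1), biglycan (Bgn), decorin (Dcn), Sparc, Spp1, Lum, Nid1, Tnc, the glypicans Gpc1 and Gpc3, the syndecans Sdc1, Sdc2 and Sdc4, Lox and Pcsk6. These were 83 probe sets of 51 genes, out of 8740 probe sets on the array and 4736 genes named alone by a probe set. The rule reads gene names and no measured value, but it was written with earlier results of these data known. The study measured total RNA on 12 expression arrays: 5 of cells given 4.5 mM butyrate, 5 of cells given 3 mM aspirin and 2 of untreated cells. Each drug was sampled at 2, 6, 12, 16 and 24 h with 1 array per time, and untreated cells at 2 and 24 h. All arrays are of the one line, with no other genotype or agent named.

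The extracellular matrix is the mesh of collagens, glycoproteins and proteoglycans that surrounds cells, and epithelia rest on a laminin-rich sheet of it, the basement membrane. Matrix metalloproteinases are secreted or membrane-bound enzymes that cut these proteins, and Timps bind and block them. In carcinomas much of the collagen comes from stromal fibroblasts, while the tumour cells make laminins, syndecans and part of the proteases. Butyrate, made by gut bacteria, inhibits histone deacetylases, and aspirin blocks the synthesis of prostaglandins by cyclooxygenases.

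Values below are array intensities, on the linear scale of the deposited table. Intensities under 90.9 were raised to that floor before log2, and changes are log2 differences ± SE from limma, with p-values adjusted over all 6118 tested probe sets. A change is called "at least" where the lower group lay largely at the floor and the other group wholly above it, or where a rising slope started from the floor. Where arrays of both groups lay at the floor, the difference is that of the raised values and may be smaller than the true one. Arrays raised to the floor have no spread among them, so SE and p may be too small where most of a group lay there. The labels do not say whether the arrays are of separate cultures. The p-values therefore rest on the spread among these 12 arrays alone, which mixes change over the hours with noise that may be technical. The RNA is of whole cultures, so fewer cells that make a transcript and less of it per cell cannot be told apart. A probe set's level is not set against that of another.

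Of the 83 member probe sets, 56 (36 genes) were bright enough on average to be tested. Between 9 and 13 of these 56 lay at the floor on each butyrate array, 11 to 19 on each aspirin array and 9 to 10 on each untreated array. The aspirin arrays of 2, 6 and 12 h had the most (19, 19 and 18). Aspirin 2 h also had the lowest ratio of 5′ to 3′ signal for beta-actin, 0.646, against 0.812 to 1.04 on the other arrays. Its ratio for GAPDH was not low, at 0.911 against 0.761 to 0.949 on the other arrays, so the 2 controls differed. The part of these differences between arrays in the results was not tested. The untreated arrays themselves differed: at 24 h 2 of the 56 were at least 2-fold higher and 10 at least 2-fold lower than at 2 h, 21.4% against 16.5% of all tested probe sets. Epithelial transcripts were bright on all 12 arrays, where Krt8 lay between 12225 and 16016 and Epcam between 8234 and 16911, whereas the intestinal factor Cdx1 was below the floor on all of them. The summed intensity of 13 fibroblast and muscle markers was 12278 to 16855 with butyrate, 12052 to 14282 with aspirin and 14838 to 15501 untreated. Vim (2286 to 4349) and S100a4 (4505 to 9291) were well above the floor, and Pdgfrb and Myh11 were below it throughout.

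With butyrate 6 of the 56 probe sets differed from untreated cells (10.7%, against 11.7% of all tested probe sets), from 5 genes. Col1a1 and Lamb2 rose, and Fn1 (2 probe sets), Pcsk6 and Timp2 fell. Rises made up 2 of 56 (7.78% of all tested) and falls 4 of 56 (3.92% of all). The members' median change was 0.03, and that of all tested probe sets 0.00. On 11 of 56 the 5 butyrate arrays all stood on one side of both untreated arrays (27.8% of all tested), 4 above (14.7%) and 7 below (13.2%). By limma the members' share was thus close to that of the whole array, while groups without overlap were 19.6% of members against 27.8% of all. These fits do not use the hour. With the hour as a factor 2 of 56 were called, Timp2 and Lama5, against 317 of all 6118 tested probe sets. Col1a1 (limma adjusted p = 0.0554), Pcsk6 (0.0554), Lamb2 (0.101) and Fn1 (0.0819 and 0.158) did not pass. When only arrays of 2 and 24 h entered, blocked on the hour, all 6 lost their call (0.51 to 0.589). In that setting 0 of all tested probe sets were called, so this loss says nothing about these members in particular. With aspirin 0 of 56 were called by limma (0.147% of all tested), and the smallest adjusted p was 0.256. An unadjusted limma p under 0.05 was reached by 10 of 56, against 656 of all 6118 tested probe sets. The groups did not overlap on 8 of 56 with aspirin (11.6% of all tested), and the members' median was −0.32, against −0.04 over all. Both drugs were compared with the same untreated arrays.

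**Figure D1:**
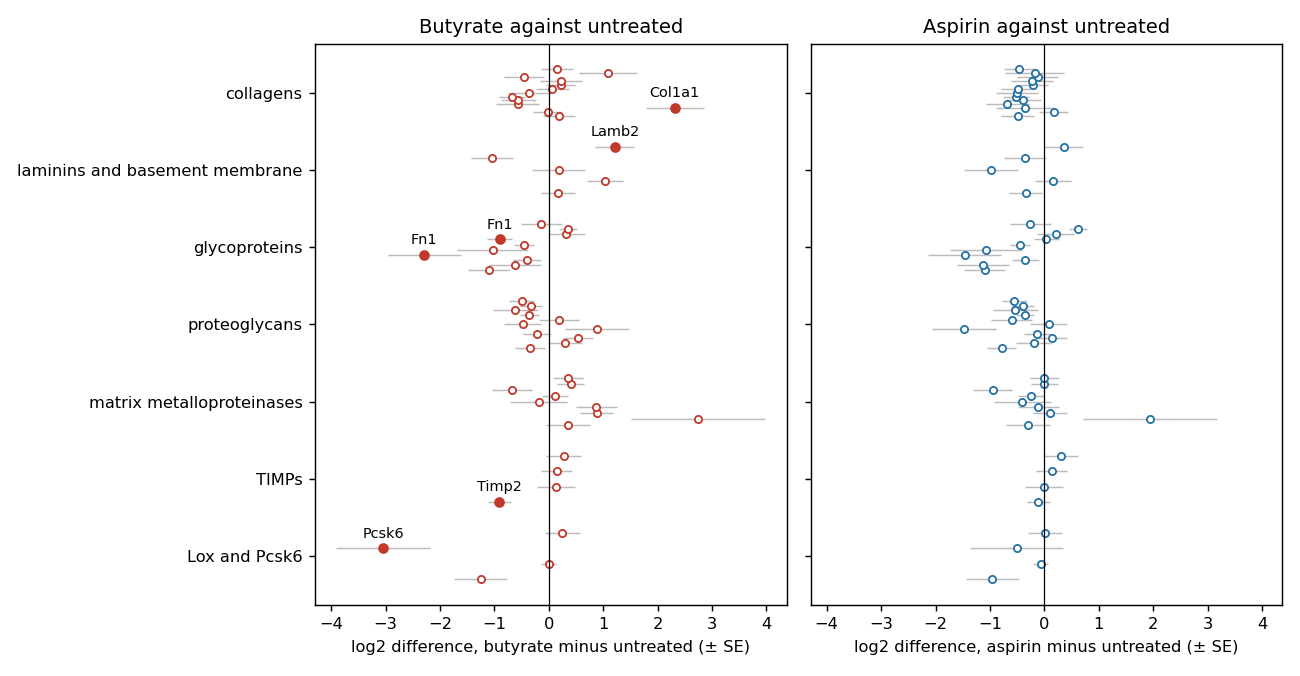
Log2 difference of each tested member probe set from untreated cells (x axis, ± SE), by family (y axis), for butyrate on the left and aspirin on the right; filled, named points have an adjusted p under 0.05. Filled points are the 6 probe sets called with butyrate, and the aspirin panel has 0.

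Collagens are the main fibres of the matrix. Of their 22 probe sets (15 genes) 13 (10 genes) were tested. The clearest rise was on 1 probe set of Col1a1, for the alpha-1 chain of type I collagen. On M27207mRNA_s_at it had intensities of 235, 515, 797, 871 and 1615 after 2, 6, 12, 16 and 24 h of butyrate. With aspirin the values at these hours were 106, 58.4, 89.5, 120 and 123, and the untreated arrays had 159 at 2 h and 114 at 24 h. Every butyrate array was thus above every aspirin and untreated array. The rise against untreated cells was 2.32 ± 0.54 (4.99-fold, limma adjusted p = 0.0165), and over the hours of butyrate the slope was 0.72 ± 0.09 per doubling of time (0.00427), or 2.59 between 2 and 24 h. The first call was lost without untreated 2 h (0.0761) or untreated 24 h (0.128), and the slope without butyrate 2 h (0.0961).

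The other 3 tested probe sets of Col1a1 changed less over the hours of butyrate, with slopes of 0.20, 0.20 and 0.21 that did not pass (smallest limma adjusted p = 0.144), and did not differ from untreated cells beyond the threshold. Probe set rc_AI231472_s_at had 456, 551, 680, 662 and 740 with butyrate, 310, 395, 388, 510 and 415 with aspirin, and 523 and 572 untreated (0.15 against untreated, adjusted p = 0.78). Z78279_g_at had 441, 646, 698, 622 and 802 with butyrate, 319 to 546 with aspirin, and 588 and 612 untreated (0.07, 0.922). Z78279_at had 250 to 570 with butyrate, 259 to 588 with aspirin, and 452 and 677 untreated (−0.36, 0.597). The 4 probe sets thus disagreed on the size of the rise, and on its sign for Z78279_at. Col1a2, which pairs with Col1a1 in the type I fibre, had 99 to 235 with butyrate, 161 to 315 with aspirin, and 216 and 274 untreated (−0.45, 0.47).

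**Figure D2:**
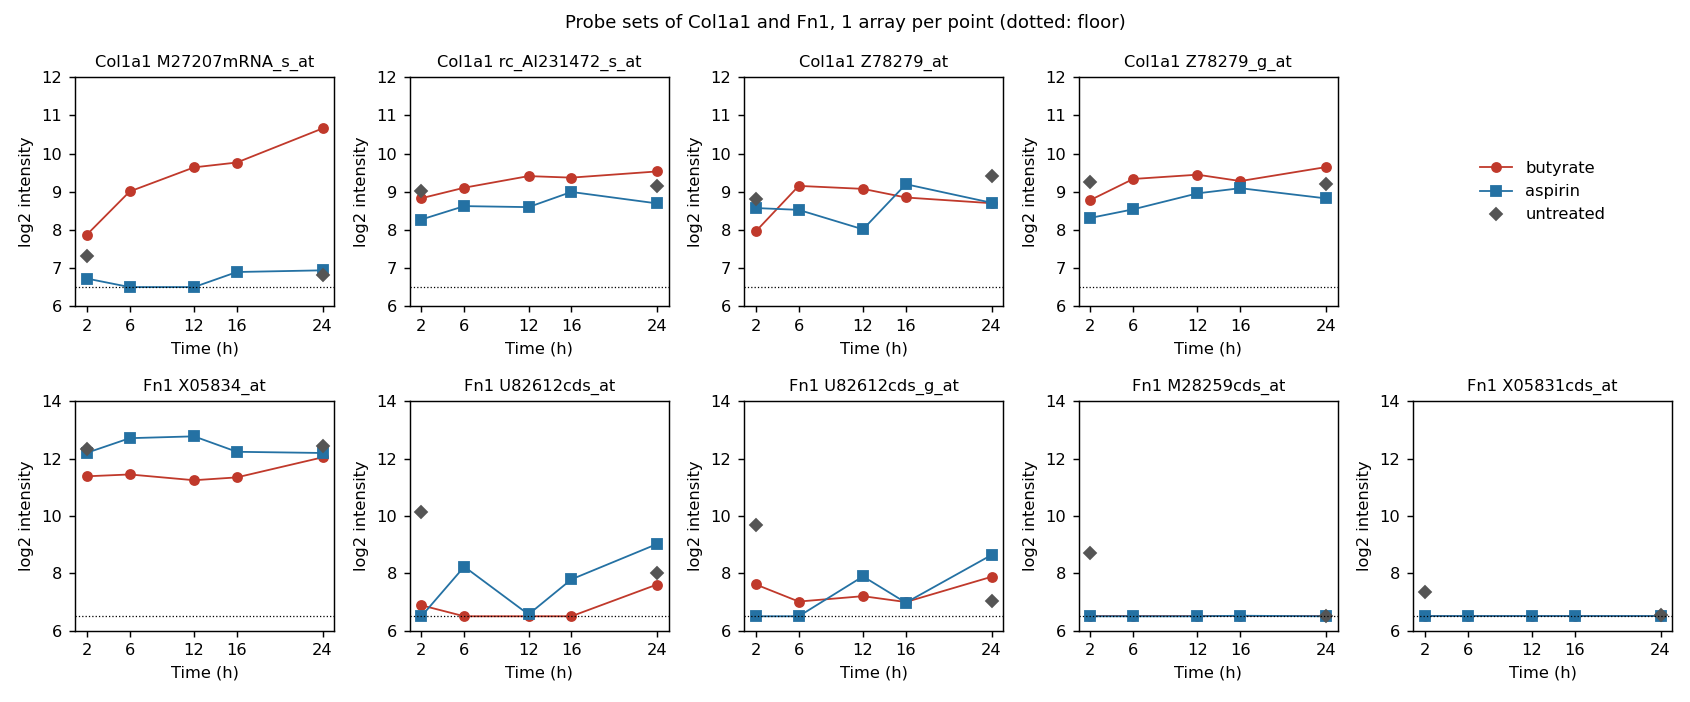
Log2 intensity (y axis) against time in h (x axis) for the 4 tested probe sets of Col1a1 (upper row) and the 5 of Fn1 (lower row), with 1 array per point and the floor dotted. M27207mRNA_s_at climbs with butyrate, while the other 3 Col1a1 panels stay within 250 to 802 in intensity, and Fn1 on X05834_at lies lower on the 5 butyrate arrays than on all others.

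Among other collagens Col15a1, of a type found at basement membranes, had 92.4, 110, 140, 168 and 176 with butyrate in order of time. With aspirin it had 59.7 to 124, and untreated 82.2 and 145. It rose in butyrate-treated cells over the hours (slope 0.28 ± 0.06, adjusted p = 0.0366), though all values were close to the floor. That call was lost without any single butyrate array (0.0539 to 0.23) and without aspirin 12 h (0.0501), and the slope was 0.00 with the floor doubled. Col4a5, a basement membrane collagen chain, had 244, 173, 262, 546 and 707 with butyrate, against 32.8 to 168 with aspirin and 274 and 42.9 untreated. It did not pass against untreated cells (1.09, 0.202).

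Col10a1 on S79214cds_s_at and Col5a1 were well above the floor on all arrays. The other Col10a1 probe set, AJ131848_at, was below the floor throughout (−101 to −17.3) and was not tested. On S79214cds_s_at Col10a1, known from growth-plate cartilage, had 506 to 660 with butyrate and 606 to 735 with aspirin, against 935 and 917 untreated. All treated arrays lay below both untreated ones, but neither drug's difference passed (−0.67 ± 0.23, adjusted p = 0.0791, with butyrate and −0.52 ± 0.23, 0.447, with aspirin). The fall with butyrate passed in 6 of 22 alternatives, among them quantile normalization (0.0278) and no filter (0.0127). Col5a1, a minor chain that sets fibre thickness, had 501 to 885 with butyrate, 372 to 590 with aspirin, and 581 and 725 untreated, so the groups overlapped.

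The adhesive glycoproteins had 13 probe sets of 4 genes, with 10 of 3 genes tested. Fibronectin, Fn1, links collagen to integrins on the cell surface. On X05834_at it had 2684, 2805, 2440, 2614 and 4245 with butyrate and 4737, 6746, 7052, 4854 and 4716 with aspirin, against 5170 and 5634 untreated. All 5 butyrate arrays lay below all others, with 24 h the nearest. The fall against untreated cells was −0.90 ± 0.23 (1.86-fold lower, limma adjusted p = 0.0263). It was lost without untreated 2 h (0.102) or 24 h (0.139) or butyrate 12 h (0.0643) or 16 h (0.066).

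A second Fn1 probe set, U82612cds_at, had 119, 31.3, −30.9, 69.8 and 196 with butyrate and 37.8, 302, 95.1, 222 and 522 with aspirin, against 1143 and 261 untreated. Here 3 of 5 butyrate arrays were at the floor, and the untreated arrays lay far apart. The fall was at least −2.29 ± 0.67 (adjusted p = 0.0419), and it was only −1.22 and lost without untreated 2 h (0.418). It was also lost without butyrate 6, 12, 16 or 24 h (0.0642 to 0.105) and without aspirin 6, 12 or 16 h (0.0504 to 0.0675). U82612cds_g_at had 128 to 236 with butyrate, 17.3 to 400 with aspirin, and 831 and 133 untreated (−1.03, 0.329). M28259cds_at had 420 on untreated 2 h and 89.5 on untreated 24 h, with all 5 butyrate and 4 of 5 aspirin arrays at the floor (−1.10, 0.0729, with butyrate). X05831cds_at was at the floor on all 10 treated arrays, against 164 and 94.3 untreated (at least −0.45, 0.116, with butyrate). Thus 4 of the 5 Fn1 probe sets read their highest value on untreated 2 h. Of these, M28259cds_at and X05831cds_at were bright enough to be tested through their untreated arrays alone. That they read higher in untreated cells thus follows from the filter and carries little weight.

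Sparc, which binds collagen and modulates adhesion, was well above the floor on all arrays on its tested probe sets. On a further one, rc_AA891204_s_at, it was below the floor throughout (−1.5 to 90.3) and was not tested. On rc_AA892248_at it had 13039 to 15683 with butyrate and 14526 to 20483 with aspirin, against 9115 and 13717 untreated. All aspirin arrays lay above both untreated ones, yet the difference did not pass (0.61 ± 0.16, limma adjusted p = 0.256), with 0.0127 without untreated 24 h and 0.995 without untreated 2 h. On rc_AA946313_s_at it had 291 to 523 with butyrate, 265 to 449 with aspirin, and 297 and 606 untreated. Y13714_at had 324 to 574, 331 to 536, and 257 and 504 in these groups, so both overlapped. Tenascin C, Tnc, had 229 to 317 with butyrate and −3.9 to 412 with aspirin, against 463 and 372 untreated on U09361_s_at (−0.62, 0.437, with butyrate), and its U15550_at was at the floor on 4 of 5 arrays of each drug.

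Laminins are the cross-shaped trimers of the basement membrane, each of an alpha, a beta and a gamma chain. With Nid1 they had 8 probe sets of 7 genes, of which 5 (4 genes) were tested. Lamb2, a beta chain, had 783, 1022, 1748, 1737 and 1771 with butyrate on rc_AI104225_at. With aspirin it had 717, 701, 511, 813 and 1051, against 605 and 549 untreated. The butyrate arrays all lay above both untreated ones and overlapped the aspirin ones. The rise was 1.22 ± 0.36 (2.32-fold, limma adjusted p = 0.0433). It was lost without untreated 2 h (0.15) or 24 h (0.186), butyrate 6, 12, 16 or 24 h (0.0508 to 0.103) or aspirin 2, 6 or 16 h (0.0576 to 0.063), and with quantile normalization (0.0614). The other Lamb2 probe set, rc_AA900848_at, had 314, 353, 369, 416 and 451 with butyrate and 13.3, 252, 103, 198 and 291 with aspirin, but 566 and 196 untreated (0.18, 0.86).

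Lama5, an alpha chain of mature epithelial basement membranes, had 253, 150, 194, 191 and 217 with butyrate. With aspirin 4 of 5 arrays were at the floor and 24 h had 216, and untreated cells had −1175 at 2 h and 102 at 24 h. The butyrate arrays lay above both untreated ones without passing (at least 1.04 ± 0.33, adjusted p = 0.0562). Lama3, of the laminin that anchors epithelia, had 676, 1772, 1245, 1345 and 2225 with butyrate and 1902 to 2684 with aspirin, against 4164 and 1857 untreated (−1.04, 0.0965, with butyrate). Lamc1, the common gamma chain, had 1134, 1423, 1416, 1365 and 1395 with butyrate, 683, 726, 914, 1113 and 1435 with aspirin, and 1592 and 890 untreated. Its aspirin values climbed at each hour, but the slope of 0.29 did not pass (0.0642).

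Proteoglycans carry long sugar chains that bind growth factors. They had 17 probe sets of 8 genes, with 11 of 6 genes tested. Against untreated cells 0 were called by limma with either drug (smallest adjusted p = 0.159 with butyrate and 0.381 with aspirin). With butyrate 1 of the 11 had an unadjusted limma p under 0.05, and with aspirin 3. Over all 6118 tested probe sets 1763 and 656 did. The cell-surface syndecan Sdc1, the main one of epithelia, rose over the hours of aspirin on both its probe sets. On S61865_s_at it had 3368, 3699, 3990, 3815 and 5207 with butyrate and 1516, 2888, 3094, 3109 and 4208 with aspirin, against 4017 and 2604 untreated. X60651mRNA_s_at had 1464, 1303, 1272, 1632 and 1750 with butyrate and 395, 833, 1010, 957 and 1402 with aspirin, against 1520 and 1094 untreated. On both the aspirin 2 h array, that with the lowest beta-actin but not GAPDH ratio, was the lowest of all 12. Of the 5 aspirin values 3 lay between the untreated pair on S61865_s_at and 1 on X60651mRNA_s_at. The slopes with aspirin were 0.37 ± 0.06 (limma adjusted p = 0.0289) and 0.47 ± 0.07 (0.0272) per doubling of time, and both were lost without aspirin 2 h, at 0.24 (0.278) and 0.33 (0.245).

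These were the 2 member probe sets called for a slope with aspirin (1.65% of all tested), both rising (1.32% of all, and 0.327% for falls). The Sdc1 calls were also lost without aspirin 16 or 24 h (0.0572 to 0.114), without butyrate 6 or 16 h (0.0558 to 0.0696) and, on S61865_s_at, without butyrate 12 h (0.0589). The slopes with butyrate were 0.14 (0.212) and 0.06 (0.689), and the difference between the drugs' slopes did not pass (0.203 and 0.106). With quantile normalization the call on X60651mRNA_s_at was lost (limma adjusted p = 0.0623). With each array centred on its median both Sdc1 calls were lost (0.0818 and 0.072). The 1 member that then rose over the hours of aspirin was Mmp13 (0.0272), and 2 fell. Of all called aspirin slopes 80.2% were rises, against 31.5% after that centring and 60.5% after quantile normalization.

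The promoter of Sdc1, the only member gene with a called course over the hours of aspirin, is shown as the 250 bases before its start (chr6:37281791-37282040, plus strand, RefSeq, GRCr8), with GC boxes in capitals.
Sdc1: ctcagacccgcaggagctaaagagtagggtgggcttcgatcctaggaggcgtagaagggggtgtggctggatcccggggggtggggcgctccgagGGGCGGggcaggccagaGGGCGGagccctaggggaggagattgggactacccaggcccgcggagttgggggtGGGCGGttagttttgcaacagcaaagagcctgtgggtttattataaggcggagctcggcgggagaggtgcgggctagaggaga
The GC box, GGGCGG on either strand, stands 155 to 150, 138 to 133 and 83 to 78 bases before the start. In windows of this length it is held by 30.47% of 33469 rat promoters and by 19 of the 36 member genes for which RefSeq gave one. A match of letters is a description and no evidence of binding.

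Syndecan 4, Sdc4, had 3661 to 6598 with butyrate and 2790 to 5205 with aspirin, against 3910 and 2580 untreated on S61868_at, and 4824 to 8909, 4938 to 9455, and 8026 and 8287 on S61868_g_at, so the groups overlapped on both. A further Sdc4 probe set, rc_AA800059_at, was below the floor throughout (−215 to −28.1) and was not tested. Glypican 1, Gpc1, anchored to the membrane by lipid, had 1231 to 1836 with butyrate and 846 to 1533 with aspirin, against 2175 and 1824 untreated. All aspirin arrays lay below the untreated pair without passing (−0.78 ± 0.27, limma adjusted p = 0.381). Biglycan, Bgn, a small matrix proteoglycan, had 605, 806, 306, 357 and 437 with butyrate on U17834_at. With aspirin it had 96.6 at 2 h and was at the floor at all later hours, and untreated cells had 716 at 2 h and −26.5 at 24 h. One untreated array thus lay among the butyrate values and the other below all of them. Its other probe set had 23.8 to 211 with butyrate, 63 to 209 with aspirin, and 132 and 259 untreated. Decorin, Dcn, was at the floor on all butyrate arrays and on untreated 2 h on both tested probe sets. On Z12298cds_s_at all aspirin arrays were at it too, and only untreated 24 h was above it (149). On X59859_i_at untreated 24 h had 177, and 2 of 5 aspirin arrays were at the floor.

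Pcsk6 encodes PACE4, a secreted protease of the furin family that cuts and activates precursors of matrix enzymes and of growth factors. On rc_AI230712_at it had 2273, 522, 289, 150 and 109 after 2, 6, 12, 16 and 24 h of butyrate. Aspirin gave 2982, 3286, 2241, 1414 and 1184 at these hours, and the untreated arrays had 2863 and 2992. Each later butyrate array was lower than the one before, and from 6 h on all lay below every aspirin array. Pcsk6 fell over the hours of butyrate with a slope of −1.23 ± 0.11 per doubling of time (limma adjusted p = 0.00142), or −4.40 between 2 and 24 h. At 24 h the intensity was 0.0364 of that of the untreated array of the same hour with butyrate, and 0.396 of it with aspirin.

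This slope was lost without butyrate 2 h (0.0653) and called without any other single array. The slope with aspirin, −0.39, did not pass (0.0979). The slopes themselves differed by −0.84 ± 0.15 (0.0446), the only member of 56 called (1.73% of all tested). That call was lost without any single array except aspirin 6 h (limma adjusted p 0.0571 to 0.244). Without aspirin 2 h, the array with the lowest beta-actin but not GAPDH ratio, the difference was −0.46. The fall against untreated cells was −3.05 ± 0.86 (8.26-fold lower, 0.0368), lost without any single array except butyrate 2 h (0.0551 to 0.189). The second tested Pcsk6 probe set, D31854_s_at, had 706, 341, 166, 255 and 274 with butyrate and 461, 438, 421, 306 and 304 with aspirin, against 1153 and 469 untreated. It did not pass with butyrate (−1.25, 0.111) or aspirin (−0.95, 0.512).

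The promoter of Pcsk6, the member with the steepest called fall, is given as the 250 bases before its start (chr1:128839492-128839741, plus strand, RefSeq, GRCr8), with GC boxes in capitals.
Pcsk6: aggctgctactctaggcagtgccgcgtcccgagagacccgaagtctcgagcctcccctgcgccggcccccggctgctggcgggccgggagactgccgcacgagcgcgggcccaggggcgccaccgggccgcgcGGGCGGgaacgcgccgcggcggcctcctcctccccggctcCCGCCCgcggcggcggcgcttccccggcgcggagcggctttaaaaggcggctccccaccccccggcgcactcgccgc
A GC box on the plus strand stands 117 to 112 bases before the start and one on the minus strand 77 to 72. The letters TATAAA are not in this window.

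**Figure D3:**
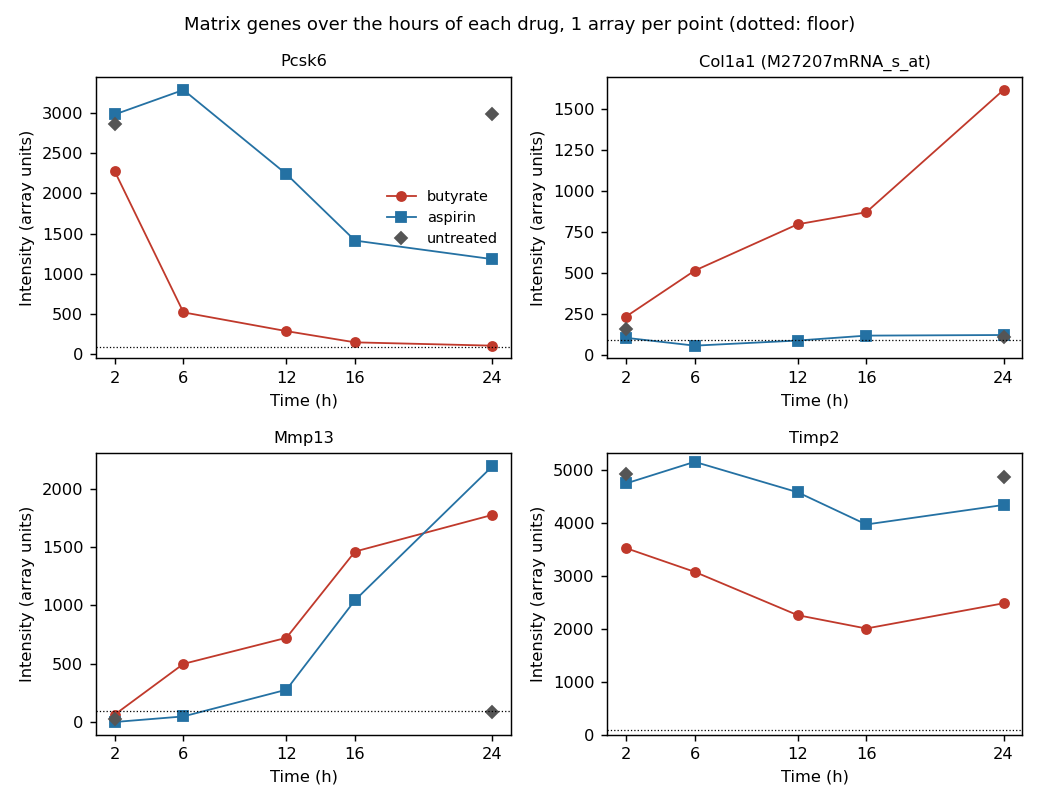
Intensity in array units (y axis) against time in h (x axis) for Pcsk6 (rc_AI230712_at), Col1a1 (M27207mRNA_s_at), Mmp13 and Timp2, with 1 array per point, lines joining the hours of a drug and the floor dotted. With butyrate Pcsk6 falls to 109 and Col1a1 climbs to 1615 at 24 h, Mmp13 climbs with both drugs, and Timp2 stays below the aspirin arrays.

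Lox, lysyl oxidase, cross-links collagen and elastin. On rc_AI234060_s_at it had 228 to 294 with butyrate, 156 to 310 with aspirin, and 273 and 162 untreated, with full overlap. S77494_s_at was at the floor on 3 of 5 butyrate arrays, 4 of 5 aspirin arrays and 1 untreated array.

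Matrix metalloproteinases had 13 probe sets of 12 genes, with 9 of 8 genes tested. Against untreated cells 0 were called by limma with butyrate (smallest adjusted p = 0.0791) or aspirin (0.404). With butyrate 3 of the 9 had an unadjusted limma p under 0.05, and with aspirin 1. Over all 6118 tested probe sets 1763 and 656 did. Mmp13, the rodent interstitial collagenase, had the largest fitted change of the family. It had 62.8, 497, 721, 1462 and 1776 with butyrate and −1.4, 46.5, 276, 1044 and 2193 with aspirin, in order of time, against 23 and 87.3 untreated. Both untreated arrays, butyrate 2 h and aspirin 2 and 6 h were at the floor, and each later array of a drug was higher than the one before.

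Mmp13 rose over the hours of butyrate by at least 1.20 ± 0.26 per doubling of time (limma adjusted p = 0.0311), or at least 4.29 between 2 and 24 h. With aspirin the slope was at least 1.30 and narrowly missed the threshold (0.0566). The slopes differed by −0.10 (0.929). Against untreated cells, over all hours of a drug, the differences were 2.75 ± 1.24 with butyrate (0.159) and 1.94 ± 1.24 with aspirin (0.614). At 24 h it was at least 19.5-fold higher with butyrate and at least 24.1-fold higher with aspirin than the untreated array of that hour, on 1 array each and with no test. The butyrate slope was lost without any single butyrate array (0.0501 to 0.489, highest without 2 h) or aspirin 16 h (0.0548). That with aspirin passed without aspirin 2 h (0.0194) or 6 h (0.0398).

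The promoter of Mmp13, the member with the steepest fitted climb, is given as the 250 bases before its start (chr8:12782579-12782828, plus strand, RefSeq, GRCr8), with an AP-1 site and a TATA box in capitals.
Mmp13: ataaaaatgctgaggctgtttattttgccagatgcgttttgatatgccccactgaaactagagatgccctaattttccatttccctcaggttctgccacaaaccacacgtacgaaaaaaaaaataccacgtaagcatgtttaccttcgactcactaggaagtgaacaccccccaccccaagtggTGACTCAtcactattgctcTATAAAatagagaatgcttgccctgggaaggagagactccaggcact
The AP-1 site, TGACTCA, stands 66 to 60 bases before the start and the TATA box, TATAAA, 47 to 42, and they do not overlap. On either strand TGACTCA is held by 4.05% of the 33469 windows and by 6 of the 36 of member genes, and TATAAA by 12.93% and by 10 of 36. An AP-1 site at this place is textbook knowledge for collagenase genes, and its use in these cells was not measured.

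The gelatinase Mmp9 had 46.7, 150, 214, 220 and 203 with butyrate. With aspirin it was at the floor on 4 of 5 arrays, with 131 at 24 h, and both untreated arrays were at the floor. It rose over the hours of butyrate by at least 0.36 ± 0.07 per doubling of time (limma adjusted p = 0.025), a call lost without butyrate 2 h (slope 0.24, 0.533) or 16 h (0.0664). Mmp11, stromelysin 3, had 491, 437, 550, 486 and 385 with butyrate and 354, 210, 364, 200 and 134 with aspirin, against 258 and 251 untreated. All butyrate arrays lay above the untreated pair without passing (0.87 ± 0.38, 0.148).

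The other gelatinase, Mmp2, had 222 to 473 with butyrate and 168 to 330 with aspirin, against 430 and 563 untreated on X71466_at. All aspirin arrays lay below the untreated pair without passing (−0.95 ± 0.36, limma adjusted p = 0.404). Its U65656_at had 206 to 727, 189 to 442, and 595 and 236, so the groups overlapped. Matrilysin, Mmp7, an epithelial member of the family, had 183, 325, 538, 420 and 336 with butyrate and 138 to 300 with aspirin, against 249 and 281 untreated (0.36, 0.615, with butyrate). Stromelysin 1, Mmp3, had 122 to 168, 68.4 to 158, and 143 and 128. Mmp12, the macrophage elastase, was above the floor at 16 h (139) and 24 h (203) of butyrate alone. Mmp14, the membrane-bound enzyme that activates Mmp2, was above it at 12, 16 and 24 h of butyrate (190, 112 and 142), and on no aspirin or untreated array. Mmp12 and Mmp14 were bright enough to be tested through their butyrate arrays alone, so this pattern follows in part from the filter.

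**Figure D4:**
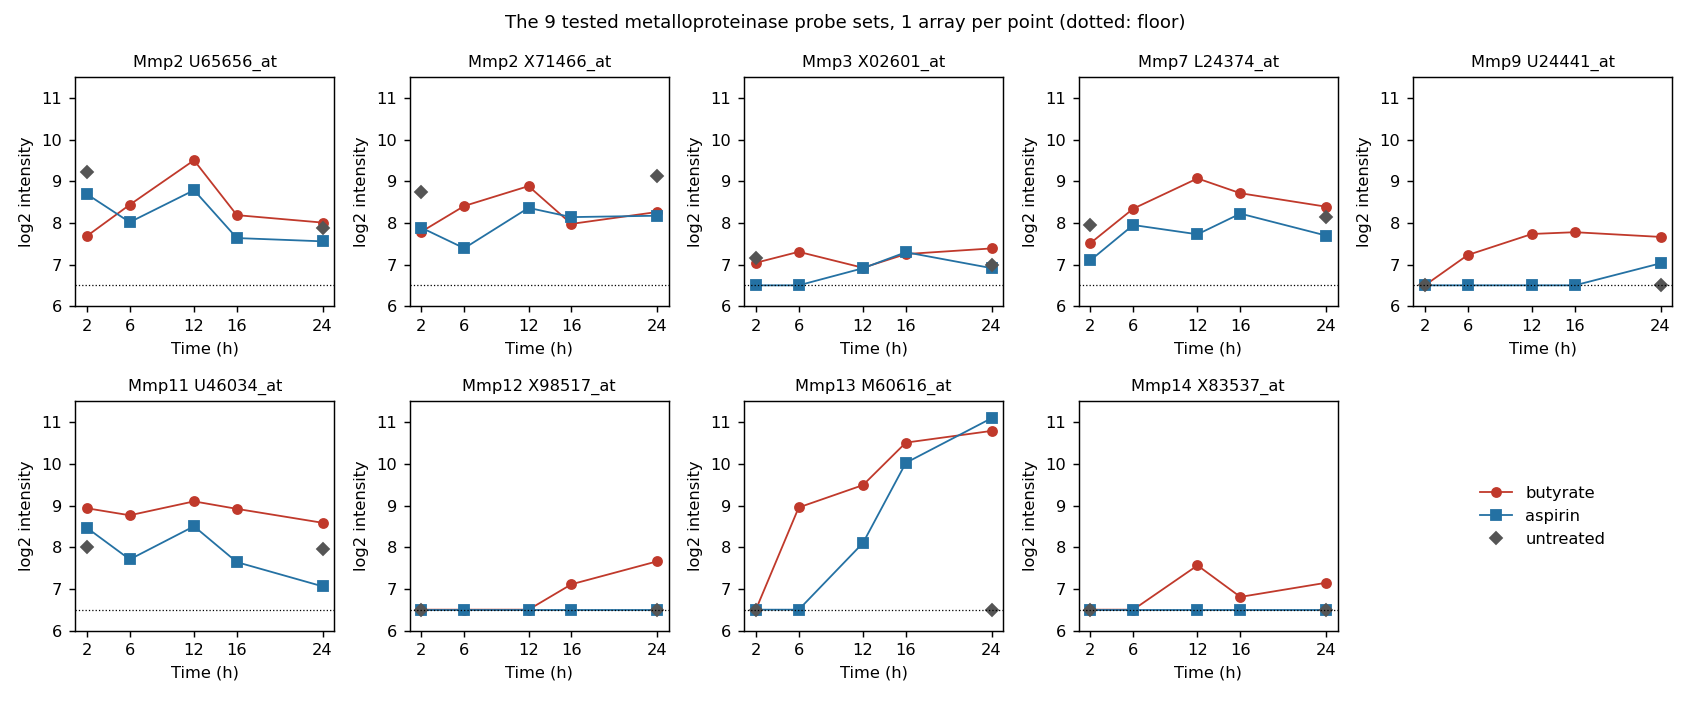
Log2 intensity (y axis) against time in h (x axis) for the 9 tested metalloproteinase probe sets, with 1 array per point and the floor dotted. Mmp13 climbs with both drugs to 1776 and 2193 at 24 h. Mmp9, Mmp12 and Mmp14 leave the floor in butyrate-treated cells and stay at it on untreated arrays. Mmp9 also leaves it at 24 h of aspirin (131), and Mmp12 and Mmp14 passed the filter through their butyrate arrays alone.

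Over the hours of butyrate 5 of 56 member probe sets had a called slope (8.99% of all tested). Col15a1, Col1a1, Mmp13 and Mmp9 rose, 4 of 56 (4.79% of all), and Pcsk6 fell, 1 of 56 (4.2% of all). With arrays centred on their median the members had 2 rises and 4 falls, and of all called butyrate slopes 22.4% were rises, against 53.3% without it. The calls of Col1a1, Pcsk6 and Mmp13 held under that centring and under quantile normalization.

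All 3 Timp genes were tested, on 4 probe sets. Timp2, which blocks metalloproteinases and also helps Mmp14 to activate Mmp2, had 3518, 3071, 2255, 2003 and 2479 with butyrate and 4737, 5145, 4572, 3964 and 4332 with aspirin. Untreated cells had 4910 and 4863. Every butyrate array lay below every aspirin and untreated array, and the untreated pair was close. The fall against untreated cells was −0.91 ± 0.21 (1.87-fold lower, limma adjusted p = 0.016), a call lost without untreated 2 h (0.0791) or 24 h (0.0694). Timp1, secreted by many cell types, had 3231, 3787, 5051, 5287 and 5780 with butyrate, 2741, 6418, 4678, 4813 and 4595 with aspirin, and 3916 and 4264 untreated on rc_AI169327_at. It climbed at each hour of butyrate on both probe sets, but the slopes of 0.25 and 0.32 did not pass (0.165 and 0.104). Timp3, which stays bound to the matrix, had 119 to 223, 74.2 to 223, and 129 and 152.

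The promoter of Timp2, whose fall kept its call in most alternatives, is given as the 250 bases before its start (chr10:104089215-104089464, minus strand, RefSeq, GRCr8), with a GC box in capitals.
Timp2: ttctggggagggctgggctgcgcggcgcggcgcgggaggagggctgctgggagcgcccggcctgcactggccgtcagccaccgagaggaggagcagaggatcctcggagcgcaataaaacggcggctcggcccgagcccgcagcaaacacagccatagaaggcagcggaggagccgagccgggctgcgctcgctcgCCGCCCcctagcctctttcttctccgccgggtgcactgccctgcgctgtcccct
The GC box is on the strand opposite to the gene, 54 to 49 bases before the start. Neither TATAAA nor TGACTCA is in this window.

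Butyrate was also compared with aspirin directly, on the 10 treated arrays with the hour as a block. Here 11 of 56 member probe sets differed (25.2% of all tested), from 10 genes, with 8 higher (15.6% of all) and 3 lower with butyrate (9.61% of all). The groups did not overlap on 7 of 56 (15.6% of all tested). The members' median was 0.14 and that of all tested probe sets 0.10. This balance depended on the scaling: with quantile normalization 2 were higher and 3 lower, and with median centring 3 and 7. Over all called probe sets 61.8% were higher, against 52.3% and 28.5% under these settings, which moved the median of all by −0.12 and −0.31. Named members kept their sign in both.

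Among differences that are not bounds the largest was that of Col1a1 on M27207mRNA_s_at, at 2.67 ± 0.38 (6.38-fold, limma adjusted p = 0.00929). It was lost without either drug's array of 12 or 16 h (0.0504 to 0.0544). Bgn on U17834_at, with 306 to 806 with butyrate and 4 of 5 aspirin arrays at the floor, was higher by at least 2.36 ± 0.24 (0.0056). This call held under all 19 alternatives, with an adjusted p of up to 0.0419. For Timp2 the difference was −0.80 ± 0.11 (0.00876), lost only without either drug's 16 h array (0.0517 and 0.0523) among the single arrays left out. Neither Bgn on U17834_at nor Timp2 had overlapping groups.

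Pcsk6 (−2.54 ± 0.46, limma adjusted p = 0.0163, on rc_AI230712_at) and Fn1 (−0.93 ± 0.20, 0.0244, on X05834_at) were lower with butyrate. Higher were Col4a5 (1.27 ± 0.33, 0.0384), Lamb2 (1.16 ± 0.27, 0.0297, on rc_AA900848_at), Mmp11 (0.99 ± 0.23, 0.0276), Lama5 (at least 0.87 ± 0.22, 0.037), Mmp9 (0.77 ± 0.21, 0.0413) and Col1a1 on rc_AI231472_s_at (0.61 ± 0.16, 0.0421). The groups overlapped for Pcsk6, Lama5, Mmp9 and this second Col1a1 probe set. Each of these 8 calls was lost without any single array of 6, 12 or 16 h of either drug (0.0514 to 0.133 over all their losses). The calls of Pcsk6, Col4a5, Mmp11 and Mmp9 were lost without an array of 24 h as well, those of Fn1 and Lama5 without one of 2 h, and those of Lamb2 and Col1a1 without one of either hour. On its other probe set, rc_AI104225_at, Lamb2 was higher by 0.86 without passing (limma adjusted p = 0.0523). The remaining tested probe sets of Pcsk6, Fn1 and Col1a1 did not pass between the drugs. Pcsk6 on D31854_s_at had a mean log2 of 8.27 with butyrate and 8.57 with aspirin, and Fn1 on U82612cds_g_at 7.35 and 7.31.

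**Figure D5:**
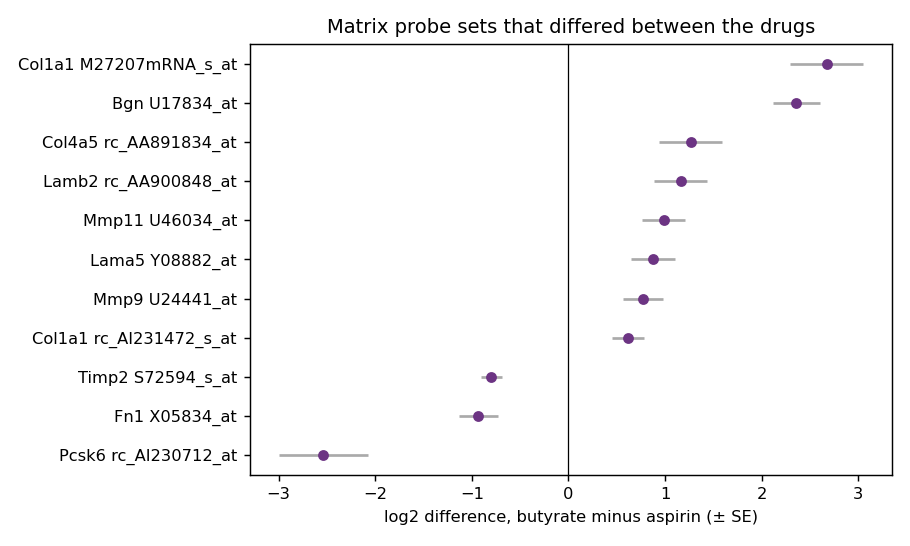
Log2 difference between butyrate and aspirin (x axis, ± SE, positive where butyrate is higher) for the 11 member probe sets with an adjusted p under 0.05 (y axis). Col1a1 on M27207mRNA_s_at stands at 2.67 and Pcsk6 is lowest at −2.54, while Bgn at 2.36 and Lama5 at 0.87 are lower bounds.

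The 27 probe sets that were too dim to be tested left 15 genes with no test: Col2a1, Col4a3, Col5a2, Col11a1, Col12a1, Lama1, Lama2, Lum, Nid1, Sdc2, Spp1, Mmp8, Mmp10, Mmp16 and Mmp23. On 23 of the 27 all 12 arrays were at the floor, and the highest intensity on the other 4 was 121. Several of these genes, such as Lum and Nid1, are made largely by stromal cells in tissue. A value at the floor sets only an upper bound and does not show that a transcript is absent.

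Other genes of matrix assembly and turnover were counted by the brightest probe set of each. Over all tested probe sets 7.78% rose and 3.92% fell with butyrate, and 15.6% were higher and 9.61% lower than with aspirin, a balance that turned with median centring. Of 11 tested genes for the folding, modification and cross-linking of collagen, 3 rose and 0 fell with butyrate (median 0.22), and 4 were higher and 1 lower than with aspirin. P4hb rose by 1.11 ± 0.19 on X02918_at (limma adjusted p = 0.00343) and by 1.125 ± 0.22 on X02918_g_at (0.00783). Its M21476_s_at did not pass (1.12, 0.153). With aspirin 1 rose (0.147% of all tested were called), Ppib, a cyclophilin that helps collagen to fold. On rc_AA818487_s_at it rose by 0.82 (limma adjusted p = 0.0361), against 0.47 with butyrate (0.0435). Its other probe set, AF071225_at, did not rise with either drug (0.11, 0.84, with aspirin and −0.11, 0.62, with butyrate). Plod1, which hydroxylates collagen lysines, had 91.2, 406, 368, 486 and 592 with butyrate, while all aspirin and untreated arrays were at the floor. The rise was at least 1.86 ± 0.52 (limma adjusted p = 0.0354). Plod1 was bright enough to be tested through its butyrate arrays alone. The floored arrays had no spread, so this p carries little weight. Of 22 tested genes of the plasminogen system and other proteases and inhibitors, 4 rose and 1 fell with butyrate (median 0.20), against 7.78% and 3.92% of all tested. The largest of these rises was that of Plat, at least 3.50 ± 0.51 (limma adjusted p = 0.00154). Plat had 334 to 1557 with butyrate, 30.2 to 169 with aspirin, and 52 and 84.1 untreated. Serpinb5, maspin, had 181, 331, 544, 748 and 858 with butyrate, against 39 to 132 with aspirin and 34.6 and 50.3 untreated, a rise of at least 2.34 ± 0.48 (0.00911). The lysosomal protease Ctsd rose by 1.81 ± 0.54 (0.0443) and by 1.74 ± 0.47 (0.0315) on its 2 probe sets. Furin, a convertase of the same family as Pcsk6, had 2632, 1876, 2344, 2288 and 3158 with butyrate on X55660_g_at, against 4114 to 5258 with aspirin and 4550 and 5114 untreated. Its change was −0.99 ± 0.20 (0.00783), and its other probe set read −0.71 (0.189). Of 14 other tested matrix genes 1 was higher with butyrate than with aspirin, Reln (0.86 ± 0.22, 0.038), for the large secreted protein reelin. Rpsa, of the ribosome and known as a laminin receptor precursor, was lower (−0.26 ± 0.06, 0.0299).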

How the data were processed

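Total RNA of 12 samples was measured on 1 expression array each. The deposited value table holds 8799 probe sets, 59 of them controls, as intensities on a linear scale with negative values, as read from the values. Which software, background step and scaling produced these intensities is not given in the sources used here. Array means without the lowest and highest 2% of values were 1001.52 to 1002.08, so no further scaling was applied, and 0 columns were left unused.

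Values under 90.91, the absolute value of their 10th percentile, were raised to it before log2, and 6118 probe sets whose mean log2 exceeded the 30th percentile (6.543) were tested. Each drug was compared with untreated cells by limma 3.58.1 in R 4.3.3 (lmFit and trended eBayes, all 12 arrays), the drugs with each other on 10 arrays with the hour as a block, and slopes over log2 hours on the same 10, with 9, 4 and 6 residual degrees of freedom. P-values were adjusted after Benjamini and Hochberg over all tested probe sets (threshold 0.05). Precision is limited by the small number of arrays. "At least" marks a difference whose lower group had at the floor 1 or more untreated arrays, or at least 3 treated ones, with the other group wholly above it, and a rising slope that started from the floor. Gene names are those of the platform annotation, and probe sets of several genes (308) or none were tested but not named.

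Named were members called in any comparison, the 2 genes with the brightest tested probe set of each family, and the 3 largest uncalled rises and falls of each drug whose arrays lay on one side of the untreated pair; remaining members are given by ranges and counts. P4hb, Plod1, Plat, Serpinb5, Ctsd, Furin, Reln, Rpsa, Lgals1, Itgb4, Itga7, Smad2 and Fst and some further members were picked after their values were seen. The members and lists were chosen with earlier results of these data known. Alternatives were other floors, a generalised log, quantile normalization, median centring, other filters, no variance trend, other treatments of time and leaving out each array. The fits were tested on simulated data.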

Additional observations from a re-analysis of the deposited data

Results flagged for a closer look

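Each value below compares 1 array with the other 4 of its drug, as its gap to the nearest of them over the whole range of log2 values, with 0.71 as the limit for 5 arrays. Arrays of a drug differ in hour, and chance alone passes about 1 in 20 such groups. With butyrate, Fn1 on X05834_at was high at 24 h (4245, gap 0.748), the one butyrate array near the untreated pair. Col5a1 (501, gap 0.785) and Lamc1 (1134, gap 0.817) were low at 2 h. With aspirin, 1 array stood above the floor and the other 4 at it (gap 1) for Lama5 at 24 h (216), Mmp9 at 24 h (131) and Bgn on U17834_at at 2 h (96.6), so the order of the other 4 is unknown. The slope of Pcsk6 over the hours differed between butyrate and aspirin by −0.84 per doubling of time (limma adjusted p = 0.0446).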

How the results depend on the processing

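The member counts depended on the setting. Brackets give the count over all probe sets tested in the same setting. With butyrate against untreated cells the 6 (716) became 3 with the floor doubled (489) and 2 without a filter (358). They became 2 with the hour as a factor (317) and 0 on the 2 and 24 h arrays alone (0). When 1 treated array was left out they became 2 to 8 (310 to 1166). With aspirin the 0 (9) stayed 0 in every setting that kept both untreated arrays (0 to 17). Leaving either untreated array out leaves 1 in that group, so no count is given for those fits. Between the drugs the 11 (1540) became 5 with quantile normalization (1218) and 4 without a filter (778). When 1 array was left out, which also removes its hour's contrast, they became 1 to 11 (241 to 1645). The 5 slopes with butyrate (550) became 3 with the floor at 0.5 of its value (521), 2 with double the floor (501) and 3 without a filter (329). Over arrays left out they were 0 to 7 (81 to 541). The 2 slopes with aspirin (101) became 4 with the generalised log (251) and 1 without a filter (72), and 0 to 5 over arrays left out (6 to 231). The 1 difference in slope (106) became 0 without a filter (37) or with a line over hours (70). It became 3 with the 50th-percentile filter (167) and 2 without the variance trend (109), and 0 to 1 over arrays left out (3 to 119). Of 789 recomputed values of single member probe sets, 558 kept their sign and side of the threshold, 210 lost a call, 20 gained one and 1 lost its sign, the slope of Col15a1 with butyrate at 0.00 with the floor doubled. These 789 mix results called and not called in the main fit, and only a called one could lose its call. Between the drugs Bgn on U17834_at kept its call in 19 of 19 alternatives. The slopes of Col1a1 and Pcsk6 with butyrate kept theirs in 18 of 19. The falls of Timp2 and Pcsk6 against untreated cells kept theirs in 19 and 7 of 22, and the rise of Col1a1 in 16. Those of Fn1 on X05834_at, Fn1 on U82612cds_at and Lamb2 kept theirs in 15, 9 and 8 of 22. Between the drugs Timp2 and Col1a1 on M27207mRNA_s_at kept theirs in 17 and 15 of 19, Pcsk6 and Fn1 in 10 each, Mmp11 in 8, and Lamb2, Col4a5 and Col1a1 on rc_AI231472_s_at in 7 each, while Lama5 and Mmp9 did in 6 of 18. Of the slopes, those of Mmp13 and Mmp9 with butyrate kept theirs in 11 of 19 and 11 of 18, Col15a1 in 6 of 18, Sdc1 in 10 and 11 of 19, and the difference in slope of Pcsk6 in 7 of 19. The uncalled fall of Col10a1 with butyrate passed in 6 of 22, and the uncalled rise of Lama5 in 3 of 21. The slope of Mmp13 with aspirin gained one in 8 of 19. The causes were not tested. The labels give no replicate numbers, so no block on them was fitted, and arrays were matched by hour instead, in the comparison between the drugs and in the fits with the hour above. Signal near the floor limits Bgn, Mmp9, Lama5, Col15a1 and the dimmer Fn1 probe sets, whose changes are bounds or small.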

Other observations

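Receptors that hold cells to the matrix were counted by the brightest probe set of each gene. Of 20 tested 1 rose and 0 fell with butyrate against untreated cells (median 0.00), and 6 were higher and 1 lower with butyrate than with aspirin. Over all tested probe sets 7.78% rose and 3.92% fell with butyrate, and 15.6% were higher and 9.61% lower than with aspirin. This last balance turned with the scaling, since 28.5% of all called were higher after median centring, against 61.8% without it. Lgals1, for galectin 1, which binds the sugar chains of laminin and fibronectin, had 494, 1321, 3425, 5358 and 9765 after 2, 6, 12, 16 and 24 h of butyrate, against 355 to 539 with aspirin and 160 and 349 untreated. It rose by 3.46 ± 0.82 (limma adjusted p = 0.0187), and each later butyrate array was higher than the one before. Itgb4, the integrin subunit of hemidesmosomes, had 1264 to 1745 with butyrate, against 612 to 1038 with aspirin, and was higher by 0.89 ± 0.14 (0.011). Its untreated arrays had 1398 and 425. Itga7, a laminin-binding integrin subunit, had 270 to 472 with butyrate and 139 to 264 with aspirin on X65036_g_at, and was higher by 0.92 ± 0.19 (0.0208).

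Of 12 tested ligands, receptors and regulators of the TGF-beta family, which control much of matrix synthesis, 2 fell and 0 rose with butyrate (median −0.51), against 3.92% and 7.78% of all tested. One of them, Smad2, carries the signal to the nucleus. On AB017912_g_at it had 1055, 744, 766, 728 and 548 with butyrate and 1356 to 1982 with aspirin, against 1863 and 1549 untreated (−1.18 ± 0.26, limma adjusted p = 0.0141). Its other probe sets fell too, by 0.77 ± 0.22 (0.0372) and by 0.94 ± 0.28 (0.0467). Every butyrate array lay below both untreated ones on all 3. The other gene that fell, Fst, changed by −3.55 ± 0.36 (limma adjusted p = 0.000291) on rc_AA858520_g_at. On rc_AA858520_at, with 2 butyrate arrays at the floor, it changed by −5.17 ± 0.65 (0.000612).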
